A study of Mus musculus with 12 samples.

Results

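The 5 genes AA465934, Aqp8, Nlrc3, Tspan17 and Adap1, that were raised in hearts of Lemd2 knock-in mice were followed heart by heart in 12 whole-heart RNA libraries. They were selected on their rise in the knock-in, and all 5 were found among the 24062 gene symbols of the count table. The adult groups were 3 WT and 3 KI/KI mice aged 2 months, the latter homozygous for the c.T38>G change of Lemd2 in every cell of the body. The neonatal groups were 3 Lemd2-floxed and 3 cKO mice at postnatal day 1 (P1), with loxP sites around exon 1 of Lemd2 in both. In the cKO mice Cre was driven by the Myh6 promoter, so deletion is limited to cardiomyocytes while the other cells of the heart keep the gene. A group with Cre alone was not analysed here, and age cannot be told apart from the kind of mutation when the models are set side by side.

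LEMD2 is a protein of the inner nuclear membrane that helps to hold chromatin at the nuclear edge and takes part in resealing the nuclear envelope after mitosis. The 5 genes do not form a pathway. AA465934 is a noncoding transcript, Aqp8 encodes a water channel that also passes hydrogen peroxide, and Nlrc3 encodes a member of the NLR family that restrains innate immune and T cell signalling. Tspan17 encodes a tetraspanin that accompanies the membrane protease ADAM10, and Adap1 encodes a GTPase-activating protein for the small GTPase ARF6 that binds phosphoinositides.

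The genes lie on 5 chromosomes of GRCm38 (GENCODE M21). AA465934 spans chr11:83291699-83294632 on the plus strand, is annotated as a processed transcript and holds the C/D box small nucleolar RNA gene Snord7 in an intron. Snord7 shares 0 bases with the exons of its host, and its summed count over the 12 libraries of polyA RNA was 0. Whether counting used strand is not given in the sources used here. Aqp8 lies at chr7:123462291-123468004 on the plus strand, and Nlrc3 at chr16:3945007-3976632 on the minus strand. Tspan17 lies at chr13:54789377-54796776 on the plus strand, and Adap1 at chr5:139271876-139325622 on the minus strand. Of the genes that the annotation places across any of the 5, 0 bases were shared with their exons.

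The Snord7 sequence, from GENCODE M21, is shown because it is what separates AA465934 from an ordinary noncoding transcript. Capitals mark box C at bases 6 to 12 and box D at bases 90 to 93.

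Snord7: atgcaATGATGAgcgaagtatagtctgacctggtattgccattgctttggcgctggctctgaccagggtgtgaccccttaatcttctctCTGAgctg

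The promoters of the genes with the 3 highest rises in KI/KI hearts are shown from 250 bases before the RefSeq start site to the base before it, on the strand of the gene (GRCm38.p6, RefSeq). Capitals mark E-box letters (CANNTG) and the TEAD letters GGAATG. The AA465934 window is chr11:83291449-83291698, the Aqp8 window chr7:123462044-123462293 and the Nlrc3 window chr16:3976633-3976882.

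AA465934: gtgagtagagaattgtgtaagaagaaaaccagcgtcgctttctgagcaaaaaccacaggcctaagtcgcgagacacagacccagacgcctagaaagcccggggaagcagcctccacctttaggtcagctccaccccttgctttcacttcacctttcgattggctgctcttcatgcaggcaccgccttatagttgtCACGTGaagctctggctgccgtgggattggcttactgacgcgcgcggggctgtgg

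Aqp8: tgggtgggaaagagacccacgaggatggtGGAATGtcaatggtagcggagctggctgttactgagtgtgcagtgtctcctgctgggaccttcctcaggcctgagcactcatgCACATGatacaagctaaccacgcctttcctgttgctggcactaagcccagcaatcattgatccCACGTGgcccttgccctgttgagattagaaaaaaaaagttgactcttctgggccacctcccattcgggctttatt

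Nlrc3: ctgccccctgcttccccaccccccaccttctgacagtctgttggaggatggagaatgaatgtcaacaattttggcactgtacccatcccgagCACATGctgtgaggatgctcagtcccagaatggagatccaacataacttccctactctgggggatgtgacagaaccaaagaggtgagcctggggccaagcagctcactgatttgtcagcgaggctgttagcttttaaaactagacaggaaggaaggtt

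Motif letters were searched on both strands in the 250 bases before each start. E-box letters stood in 4 of the 5 genes, Tspan17 being without, and in 66.2% of 32851 promoter windows. The palindromic form CACGTG, searched after the first matches were seen, is a special case of CANNTG. It stood in AA465934 at bases -55 to -50 and in Aqp8 at bases -75 to -70, counted from the start site, and in 6.02% of all windows. TEAD letters were found in Aqp8 alone of the 5, and in 12.6% of all windows. AP-1 letters, TGANTCA, were found in 0 of the 5 genes and in 6.75% of all windows. STAT letters, spelled TTCNNNGAA, were likewise in 0 of the 5, against 7.02% of windows. The same held for the GATA motif AGATAA, which 9.99% of windows had. Interferon element, MEF2 and p53 half-site letters were also found in 0 of the 5, and in 2.98%, 2.92% and 7.13% of windows. Promoter GC content, at 77.6% for Adap1 and 70.8% for Tspan17, was above the upper quartile of all windows (61.2%), while AA465934 had 55.6%, Aqp8 52.4% and Nlrc3 52.0%.

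Library totals ranged from 37063669 to 44789753 counts, and all levels are CPM, counts relative to library size after scaling over the 12 hearts. A floor of 3 counts lay between 0.0670 and 0.0809 CPM of the library totals before this scaling. The floor covers counting error only, and was passed by every heart for every one of the 5 genes. Lemd2, the check of the labels, ranged from 24.4 to 25.3 CPM in floxed hearts, and cKO hearts 4, 5 and 6 had 6.64, 13.1 and 11.3 CPM. In the adult it had 31.9 to 34.7 CPM in WT and 24.8 to 25.6 CPM in KI/KI hearts. The labels do not give sex. In cKO heart 4 the mean log2 CPM of 4 Y-linked genes was -3.91, against 5.55 to 6.25 in the other 11 hearts. Markers of working cardiomyocytes were the most abundant of the marker lists in every group, with a summed level of 57090 to 77854 CPM in KI/KI and 77330 to 87110 CPM in WT hearts. At P1 they were lower without overlap, at 40277 to 43964 CPM in cKO and 45844 to 53639 CPM in floxed hearts. Lung epithelium markers varied between single hearts, from 0.505 to 420.2 CPM, in both models.

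In adult hearts all 5 genes were higher in KI/KI than in WT mice without overlap. Since the genes were chosen by this contrast, the adult values are a description and carry no test. The standard errors printed with them take no account of that choice. Of 14592 genes tested, 11.2% were likewise higher in KI/KI hearts without overlap. No gene passed both thresholds, an adjusted p of 0.05 and a 2-fold change, in edgeR's quasi-likelihood test of the adult hearts (0%), 16.0% had an unadjusted p under 0.05, and DESeq2 called 1.08% of the 14555 genes it adjusted. In whole-heart RNA, a larger share of cells that express a gene and more of its RNA per cell cannot be told apart.

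AA465934 was measured at 0.674, 0.702 and 0.764 CPM in WT hearts 1, 2 and 3, and at 6.34, 10.04 and 5.28 CPM in KI/KI hearts 4, 5 and 6. The WT hearts were close to each other, with a mean of 0.713 ± 0.0462 (SD, n = 3), and the lowest KI/KI heart lay above the highest WT heart by far. This was a log2 fold change of 3.34 (SE 0.292), a fold change of 10.1, the fourth highest of all genes fitted. Raw counts were 21 to 28 in WT and 188 to 416 in KI/KI hearts.

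Aqp8 was measured at 1.03, 0.702 and 1.501 CPM in WT and 3.66, 9.72 and 13.4 CPM in KI/KI hearts 4, 5 and 6. KI/KI heart 4 stood apart from the other KI/KI hearts, and the coefficient of variation of the KI/KI group was the highest of the 5 genes. The log2 fold change was 3.05 (SE 0.528), an 8.27-fold difference.

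Nlrc3 reached 1.70, 1.34 and 2.48 CPM in WT hearts, and 5.38, 14.2 and 8.39 CPM in KI/KI hearts 4, 5 and 6. Heart 5 was the highest and heart 4 the lowest of the KI/KI group. The log2 fold change was 2.34 (SE 0.410), or 5.08-fold.

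Tspan17 was measured at 10.04, 8.85 and 9.60 CPM in WT hearts, and 15.3, 23.5 and 19.1 CPM in KI/KI hearts 4, 5 and 6. The groups did not overlap, with the KI/KI hearts in the same order as for Nlrc3. Its log2 fold change was 1.03 (SE 0.163).

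Adap1 was measured at 2.73, 2.47 and 3.98 CPM in WT hearts and at 5.03, 7.55 and 6.20 CPM in KI/KI hearts 4, 5 and 6. WT heart 3 came nearest to the KI/KI group, and KI/KI heart 5 was again the highest. Adap1 had a log2 fold change of 1.04 (SE 0.241).

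Per kilobase of merged exons, Tspan17 was the most abundant of the 5 genes in KI/KI hearts, at 11.7 ± 2.49 CPM per kb (SD, n = 3). AA465934 followed at 10.2 ± 3.52 and Aqp8 at 5.65 ± 3.12, while Adap1 had 1.902 ± 0.384 and Nlrc3 1.32 ± 0.637 CPM per kb. Tspan17 and AA465934, AA465934 and Aqp8, and Adap1 and Nlrc3 are neighbours in this order whose means lie within the sum of their SDs. In WT hearts the level of Tspan17 was 5.73 ± 0.365 CPM per kb, that of AA465934 1.00 ± 0.0650 and that of Nlrc3 0.261 ± 0.0825.

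**Figure D1:**
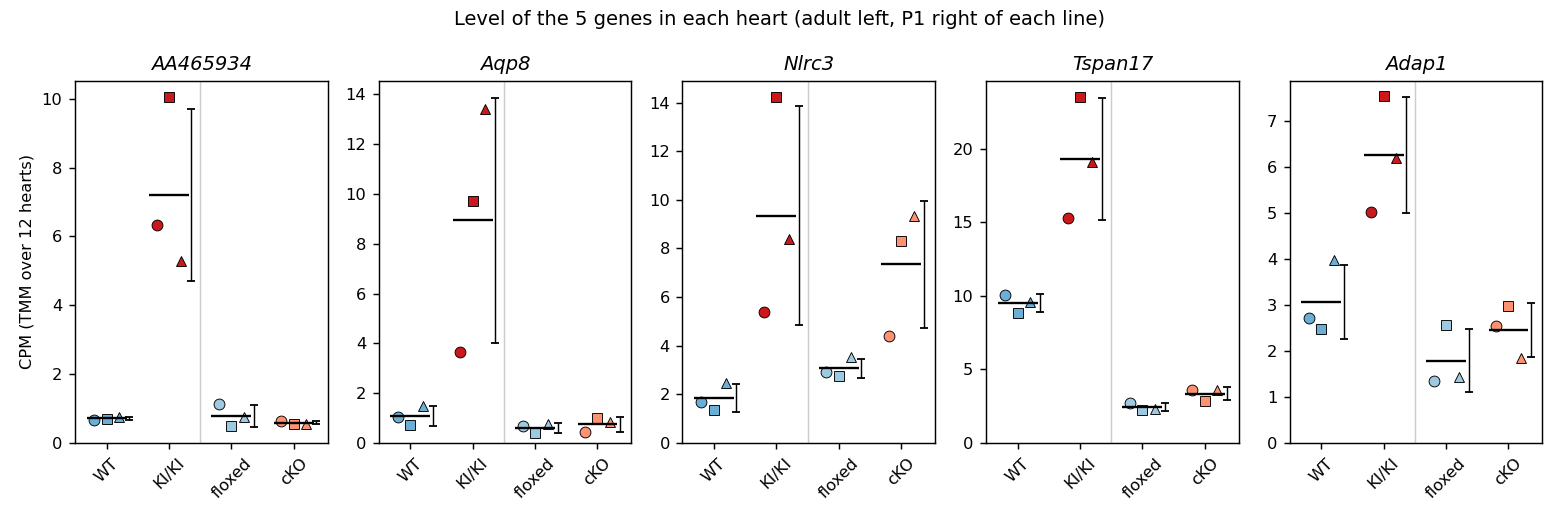
Level of AA465934, Aqp8, Nlrc3, Tspan17 and Adap1 in each of 12 hearts, in CPM on a linear axis from 0; points are single hearts (circle, square and triangle for replicates 1, 2, 3 or 4, 5, 6), horizontal lines are group means and bars to the right show 1 SD on each side (n = 3). KI/KI hearts lie above WT hearts for every gene, while cKO hearts lie above floxed hearts without overlap for Nlrc3 and Tspan17.

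The level of the 5 genes differed between the KI/KI hearts. Against the mean of the WT hearts, heart 5 was the highest for AA465934 (14.1-fold), Nlrc3 (7.73-fold), Tspan17 (2.48-fold) and Adap1 (2.47-fold), and heart 6 for Aqp8 (12.5-fold). Heart 4 was the lowest for Aqp8 (3.40-fold), Nlrc3 (2.92-fold), Tspan17 (1.61-fold) and Adap1 (1.64-fold), whereas heart 6 was the lowest for AA465934 (7.40-fold). Gdf15, a stress-induced cytokine, had 7.16-, 31.6- and 20.7-fold the WT mean in KI/KI hearts 4, 5 and 6. Nppb, which encodes B-type natriuretic peptide and is a marker of ventricular load, had 1.95-, 4.90- and 4.08-fold. The order of the 3 hearts for Nlrc3, Tspan17 and Adap1 was that of Gdf15 and Nppb, and the order for AA465934 and Aqp8 was not. Markers of atrial cardiomyocytes, 4 of 4, had the same order, with 4082, 9649 and 6406 CPM in KI/KI hearts 4, 5 and 6 and 3694 to 3809 CPM in WT hearts. So had fibroblast markers, at 2433, 4742 and 2905 CPM. The same order was seen for markers of endothelium, smooth muscle, T and NK cells, hepatocytes and pancreatic acinar cells. Working cardiomyocyte markers had the reverse order, at 77854, 57090 and 70306 CPM, as had skeletal muscle and Schwann cell markers. Macrophage and neutrophil markers had the order of AA465934, and adipocyte markers that of Aqp8. B cell and lung epithelium markers followed none of these orders. The part of these cell types in the levels of the genes was not tested.

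**Figure D2:**
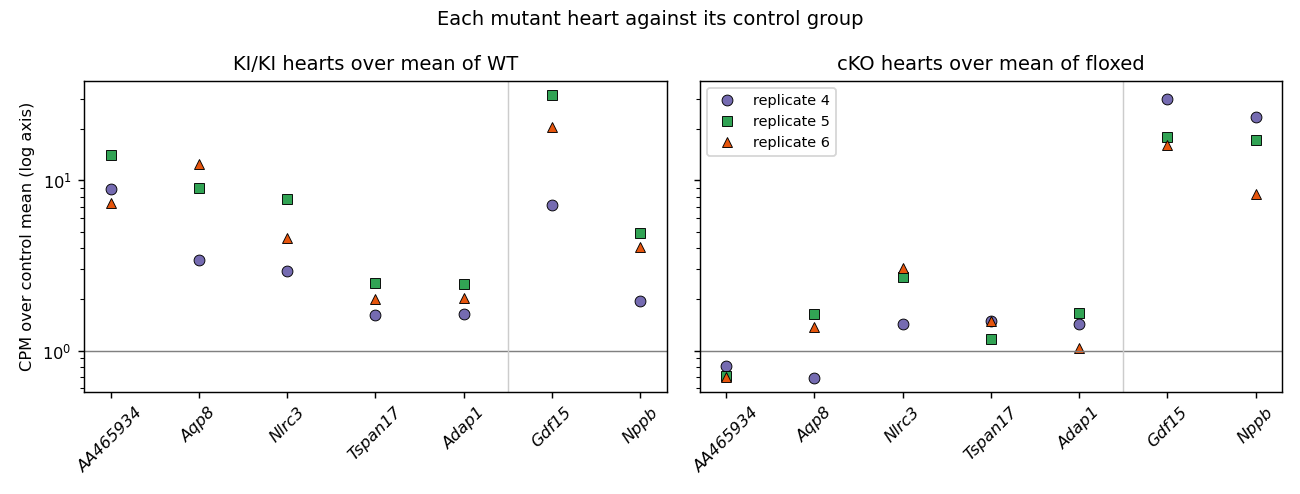
Each mutant heart over the mean of its control group (CPM ratio, log axis), with KI/KI hearts on the left and cKO hearts on the right; the line at 1 marks the control mean, and Gdf15 and Nppb are set apart on the right of each panel. KI/KI heart 5 was at 31.6-fold for Gdf15 and 7.73-fold for Nlrc3, whereas cKO heart 4 was at 30.0-fold for Gdf15 and 1.43-fold for Nlrc3.

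The rule chose the genes by the adult contrast, though with earlier results of the P1 hearts known. Hearts of P1 cKO mice were compared with floxed hearts in edgeR's quasi-likelihood test over 15317 genes, with Benjamini-Hochberg adjustment. A gene was called when it passed both an adjusted p of 0.05 and a 2-fold change. Of the 5 genes, all of which passed the filter on low counts, 1 was called, Nlrc3, against 2.77% of all genes called higher and 4.48% called in either direction. Nlrc3 and Tspan17, 2 of the 5, were higher in cKO hearts without overlap, as were 20.1% of all genes.

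Nlrc3 was measured in floxed hearts 1, 2 and 3 at 2.90, 2.77 and 3.52 CPM, and in cKO hearts 4, 5 and 6 at 4.38, 8.32 and 9.33 CPM. Every cKO heart lay above every floxed heart, cKO heart 4 by the least. Nlrc3 rose by a log2 fold change of 1.25 (SE 0.284, edgeR adjusted p = 0.03002), a 2.38-fold difference with a 95% interval of 1.496 to 3.79. The call was lost, with the direction kept, when floxed heart 1 (adjusted p = 0.132), floxed heart 2 (adjusted p = 0.106), floxed heart 3 (adjusted p = 0.0595) or cKO heart 5 (adjusted p = 0.108) was left out. Without cKO heart 4, the library low in Y-linked RNA, the log2 fold change was 1.51 (edgeR adjusted p = 0.0132), and without cKO heart 6 it was 1.05 (edgeR adjusted p = 0.0424). DESeq2 gave an adjusted p of 0.000587.

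Tspan17 was measured at 2.74, 2.23 and 2.29 CPM in floxed and 3.600, 2.84 and 3.63 CPM in cKO hearts. The groups did not overlap, but floxed heart 1 and cKO heart 5 differed by little. The log2 fold change was 0.47 (SE 0.193, edgeR adjusted p = 0.138), and the 95% interval of the fold change ran from 1.01 to 1.902.

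Adap1 was measured at 1.34, 2.58 and 1.44 CPM in floxed and at 2.55, 2.98 and 1.84 CPM in cKO hearts. Floxed heart 2 lay above cKO hearts 4 and 6, so the groups overlapped. On the log2 scale the difference was 0.46 (SE 0.328, edgeR adjusted p = 0.354), with a fold change interval of 0.805 to 2.36.

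Aqp8 was measured at 0.680, 0.393 and 0.764 CPM in floxed and at 0.422, 1.00 and 0.846 CPM in cKO hearts. cKO heart 4 lay among the floxed hearts and cKO hearts 5 and 6 above them. The log2 fold change of 0.30 (SE 0.421, edgeR adjusted p = 0.651) had a fold change interval of 0.615 to 2.45.

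AA465934 was measured at 1.13, 0.502 and 0.743 CPM in floxed and at 0.644, 0.563 and 0.556 CPM in cKO hearts. All cKO hearts fell within the range of the floxed hearts. The log2 fold change was -0.43 (SE 0.364, edgeR adjusted p = 0.435), with a fold change interval of 0.409 to 1.35. Counts of 23 to 50 lay behind these P1 values.

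**Figure D3:**
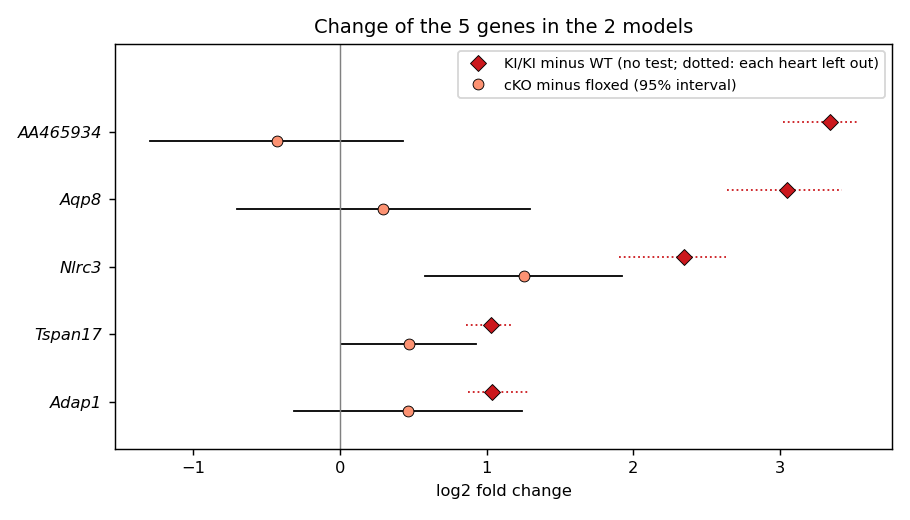
Log2 fold change of the 5 genes in the adult KI/KI hearts (diamonds, no test, dotted lines spanning the values with each heart left out) and in the P1 cKO hearts (circles, lines are 95% intervals). The P1 intervals of Nlrc3 and Tspan17 lie above 0 and those of AA465934, Aqp8 and Adap1 cross it, while the adult values chose the genes and are shown as a description.

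The difference between the models was not tested for the 5 genes, since the adult contrast chose them. Control levels differed between the ages. WT hearts had 3.92 times the Tspan17 level of floxed hearts, 1.76 times that of Aqp8 and 1.71 times that of Adap1, and Nlrc3 was the reverse, with floxed hearts at 1.66 times the WT level. AA465934 was similar, floxed hearts having 1.11 times the WT mean. The P1 cKO hearts did respond in other genes. Gdf15 rose in cKO hearts by a log2 fold change of 4.41 (SE 0.322, edgeR adjusted p = 0.00494) and Nppb by 4.05 (SE 0.726, edgeR adjusted p = 0.0162). Among cKO hearts, heart 4 had the highest Gdf15 and Nppb and the lowest Lemd2, but the lowest Nlrc3 and Aqp8.

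Between the 5 genes, Pearson's r of log2 CPM over the 6 adult hearts ran from 0.905 to 0.986, a range set in part by the choice of genes. In the 6 P1 hearts the same pairs ran from -0.771 for AA465934 and Adap1 to 0.656 for Aqp8 and Nlrc3. The points share libraries and groups, and the values are descriptions.

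Genes most like each of the 5 were ranked by Pearson's r over 12 hearts, with each gene centred on the mean of its age, among 15729 genes. Nlrc3 was closest to Tdrd7 (r = 0.976), Mrgpre (0.955) and Acta1 (0.953), the last encoding skeletal α-actin. Adap1 was closest to Ifit3 (r = 0.974), Eya4 (0.971) and Apol9a (0.951), and Ifit3 is an interferon-induced gene. Tspan17 was closest to Gm6548 (r = 0.960), Tdrd7 (0.945) and the interferon-induced gene Ifitm3 (0.945). For Aqp8 the closest were Tecpr1 (r = 0.956), Lrp11 (0.953) and Parp14 (0.950), and for AA465934 Poli (0.923), Vgll2 (0.915) and Lrrcc1 (0.907). Centring on age keeps the KI/KI against WT difference that chose the 5 genes. The ranking is therefore set in part by that choice. Over the 6 adult hearts r ran from 0.950 to 0.996 for the genes listed. The 6 P1 hearts are part of the 12 that ranked these genes. Within them r was 0.916 to 0.961 for the genes of Nlrc3, 0.910 to 0.942 for those of Adap1, 0.849 to 0.914 for those of Tspan17, 0.609 to 0.750 for those of Aqp8 and -0.785 to 0.398 for those of AA465934.

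Up to 3 of the nearest annotated genes on each side were examined for each of the 5. Of these 29 neighbours, 21 were tested in the adult and 23 at P1, and 0 were called in either by edgeR or DESeq2. Of all genes, 4.48% (edgeR) and 5.38% (DESeq2) were called at P1, and 0% and 1.08% in the adult. At an unadjusted p under 0.05, 4 passed in the adult and 5 at P1, against 16.0% and 34.3% of all genes. The median log2 fold change of these neighbours was -0.01 in the adult and -0.03 at P1, against 0.0023 and -0.0048 over all genes tested. Beside AA465934, Slfn14 had a log2 fold change of 0.43 at P1 and was too low to be tested in the adult. Beside Aqp8, Lcmt1 had -0.16 and Zkscan2 0.60 in the adult. Slc5a11, at 0 to 1 count in WT and 4 to 10 counts in KI/KI hearts, lies 189037 bases from Aqp8. Hs3st4, at 0 to 5 and 6 to 13 counts, lies 514864 bases from Aqp8. Both were higher in KI/KI hearts without overlap, but were too low to be tested in the adult. Of the 21 neighbours tested in the adult, AI662270, Hk3 and Cox19 were higher without overlap and 3 were lower. Of all genes tested, 11.2% were higher without overlap, and the share that was lower without overlap in the adult was not counted. Beside Nlrc3, Cluap1 had -0.08 and Slx4 -0.08 in the adult. At P1 Cluap1 had -0.25, lower without overlap, and Slx4 0.32, higher without overlap. Of the 23 neighbours tested at P1, 4 were higher and 3 lower without overlap, against 20.1% and 19.3% of all genes. Eif4e1b, next to Tspan17, was too low to be tested and Unc5a had -0.09 in the adult. Next to Adap1, Get4 had -0.12 and Cox19 0.38 in the adult. Ap2b1 (0.42, edgeR adjusted p = 0.0115), Prkar1b (0.77, edgeR adjusted p = 0.0248) and Cox19 (0.41, edgeR adjusted p = 0.0251) rose at P1 by less than 2-fold. An adjusted p under 0.05 at any fold was found for 16.5% of all genes.

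**Figure D4:**
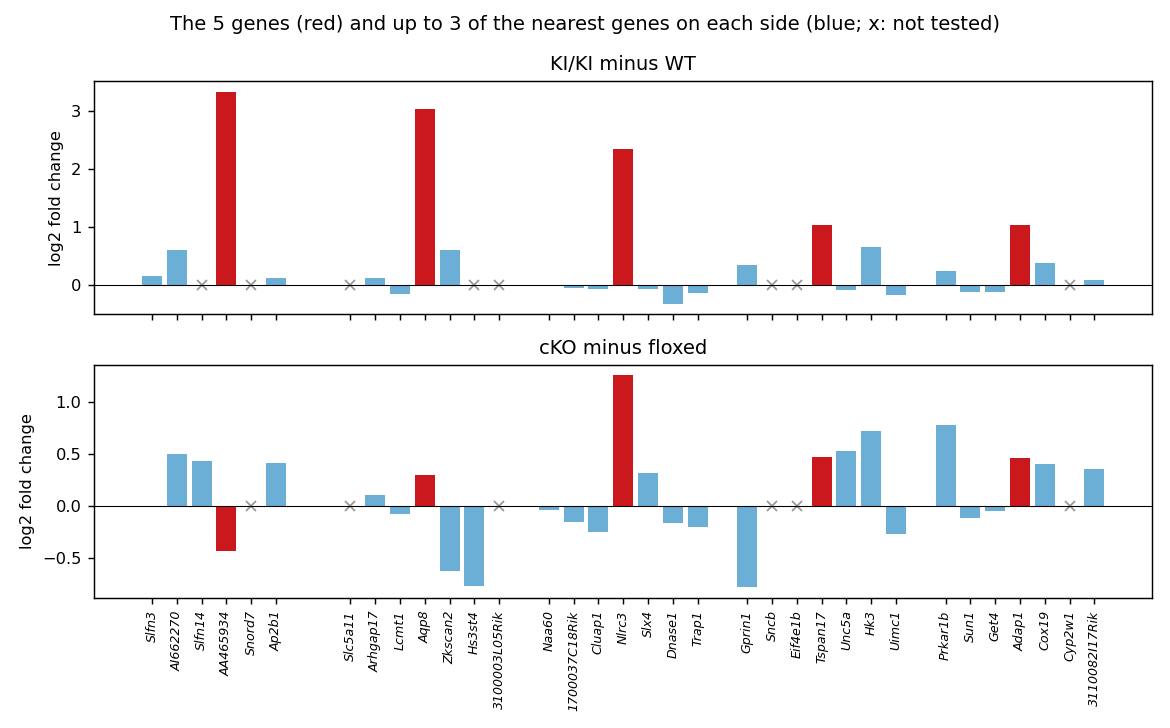
Log2 fold change of the 5 genes (red) and of up to 3 of the nearest annotated genes on each side in chromosome order (blue, crosses for genes too low to be tested), for KI/KI minus WT above and cKO minus floxed below; the panels have separate axes. The red bars of the upper panel are the values that chose the genes, so their height over the blue bars is set by that choice; in the lower panel Nlrc3 stands at 1.25.

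The families of the 4 protein-coding genes and 7 named partners were then examined, without the 5 genes themselves. Of these 91 genes, 76 were tested at P1 and 0 were called by edgeR or DESeq2, against 4.48% and 5.38% of all genes. An unadjusted p under 0.05 was found for 31 of them and for 34.3% of all genes. In the adult 0 of 72 were called by either tool, where edgeR called no gene at all and DESeq2 1.08%, and 18 had an unadjusted p under 0.05, against 16.0% of all genes. At P1, 26 of the 76 were higher and 7 lower in cKO hearts without overlap, against 20.1% and 19.3% of all genes. A positive log2 fold change was found for 51 of the 76, against 49.6% of all genes. In the adult 46 of the 72 were positive, against 50.6%. These differences in share were not tested. At P1, 10 of the 76 passed an adjusted p of 0.05 without the 2-fold threshold, as did 16.5% of all genes. By this measure alone their number was not above the background. They are named below after their values were seen, as are Nlrp3, Nlrc5, Nlrx1, Nlrp10, Tbk1 and Adam10.

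Of the other aquaporins, 0 of 6 tested had a positive log2 fold change at P1, against 49.6% of all genes, and the median was -0.75. Aqp4, the water channel of muscle and glial membranes, had 50.9 ± 3.92 CPM in floxed and 26.4 ± 5.05 CPM in cKO hearts (SD, n = 3), a log2 fold change of -0.95 (SE 0.139, edgeR adjusted p = 0.00990), just short of the fold threshold. In the adult 1 of 4 aquaporins was positive, against 50.6% of all genes, and Aqp4 had a log2 fold change of -1.73 (SE 0.616, edgeR adjusted p = 0.274).

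Among 13 other NLR genes tested at P1, 10 had a positive log2 fold change, against 49.6% of all genes, and the median was 0.20. Of the 13, 4 were higher and 2 lower in cKO hearts without overlap, against 20.1% and 19.3% of all genes. Nlrx1, a mitochondrial NLR protein, had -0.44 (SE 0.133, edgeR adjusted p = 0.0627) and Nlrp10 -0.39 (SE 0.153, edgeR adjusted p = 0.126), the 2 that were lower. Nlrp3, the inflammasome sensor, had 0.74 (SE 0.350, edgeR adjusted p = 0.183), and Nlrc5, an activator of MHC class I genes, 0.97 (SE 0.379, edgeR adjusted p = 0.122). In the adult 8 of 12 were positive, against 50.6% of all genes, with a median of 0.07. Tmem173, which encodes the DNA-sensing adaptor STING that NLRC3 binds, was at 6.67 ± 0.155 CPM in floxed and 11.2 ± 2.01 CPM in cKO hearts, with a log2 fold change of 0.74 (SE 0.161, edgeR adjusted p = 0.0264). Tbk1, the kinase downstream of STING, had 0.0032 (SE 0.112, edgeR adjusted p = 0.986).

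Of 28 other tetraspanins tested at P1, 20 were positive, against 49.6% of all genes, with a median log2 fold change of 0.16. Without overlap, 11 were higher and 1 lower in cKO hearts, against 20.1% and 19.3% of all genes. Tspan9 had 0.76 (edgeR adjusted p = 0.0179), Cd63, a marker of late endosomes and exosomes, 0.62 (edgeR adjusted p = 0.00983), and Cd151, which binds laminin-binding integrins, 0.42 (edgeR adjusted p = 0.0151). Of the TspanC8 subgroup, to which Tspan17 belongs and whose members bind ADAM10, 3 of 4 others were positive with a median of 0.06 at P1 and 0.08 in the adult. Adam10 itself had 0.15 (SE 0.118, edgeR adjusted p = 0.414) at P1 and 0.16 (SE 0.0923, edgeR adjusted p = 0.415) in the adult.

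All 22 other ArfGAP genes were tested, and 16 had a positive log2 fold change at P1 with a median of 0.24. In the adult 12 were positive with a median of 0.01. Of all genes, 49.6% were positive at P1 and 50.6% in the adult. At P1, 8 of the 22 were higher and 2 lower without overlap, against 20.1% and 19.3% of all genes. Arfgap3 had 0.71 (edgeR adjusted p = 0.0208), Agfg1 0.47 (edgeR adjusted p = 0.0146), Smap2 0.43 (edgeR adjusted p = 0.0249) and Smap1 0.40 (edgeR adjusted p = 0.0312). Arf6, the GTPase on which ADAP1 acts, was at 80.2 ± 12.3 CPM in floxed and 112.0 ± 9.19 CPM in cKO hearts, with a log2 fold change of 0.48 (SE 0.117, edgeR adjusted p = 0.0371).

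**Figure D5:**
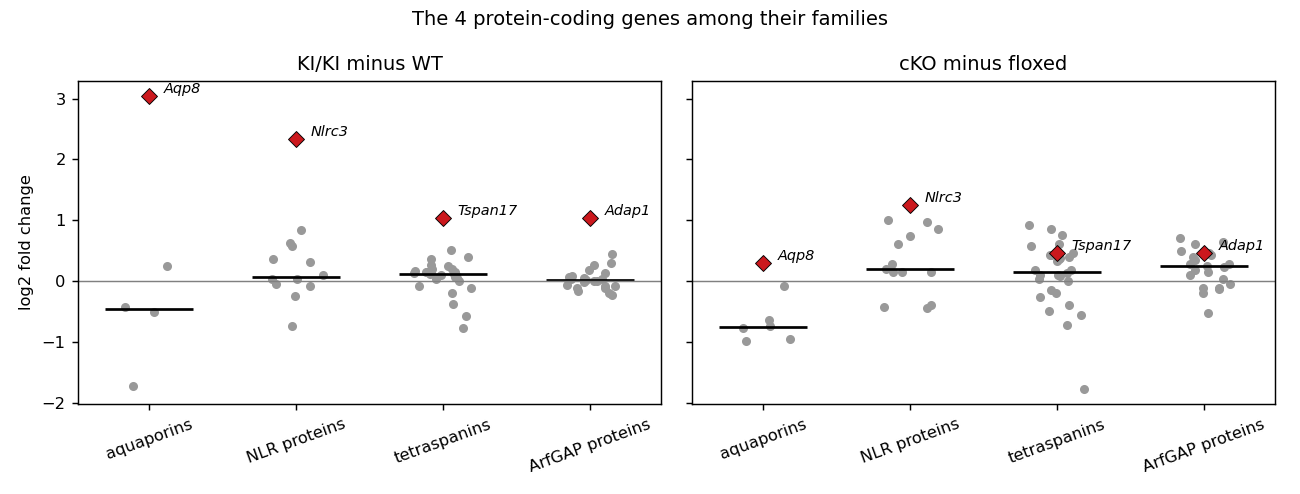
Log2 fold change of family members (grey points, black line at the median) and of Aqp8, Nlrc3, Tspan17 and Adap1 (red diamonds), for KI/KI minus WT on the left and cKO minus floxed on the right. The diamonds on the left are the values that chose the genes, so their distance from the families is set by that choice; on the right Tspan17 and Adap1 lie among their families.

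Markers of other cell types were summed beside the genes. T and NK cell markers, 10 of the 13 listed being in the table, were 4.02 to 4.61 CPM in KI/KI and 2.50 to 4.502 CPM in WT hearts, and 1.85 to 3.63 CPM in cKO and 1.25 to 2.49 CPM in floxed hearts, so both comparisons overlapped. Macrophage markers, 9 of 10, were 477.8 to 554.6 CPM in KI/KI and 305.9 to 455.8 CPM in WT hearts. At P1 they were 148.4 to 298.0 CPM in cKO and 120.5 to 145.4 CPM in floxed hearts, higher without overlap in both models. Fibroblast markers, 8 of 8, were 2433 to 4742 CPM in KI/KI and 1996 to 2410 CPM in WT hearts, and 8467 to 9221 CPM in cKO and 6313 to 7119 CPM in floxed hearts. Pancreatic acinar markers, a tissue rich in Aqp8, were 0.476 to 1.47 CPM in KI/KI and 0.183 to 0.513 CPM in WT hearts, with 5 of 8 markers at 0 in every heart of each group. Hepatocyte markers, 8 of 8, were 48.5 to 65.4 CPM in KI/KI and 42.2 to 68.2 CPM in WT hearts. At P1 the atrial markers overlapped, with 2609 to 9559 CPM in cKO and 1693 to 2900 CPM in floxed hearts. The part of macrophages in the levels of the 5 genes was not tested either.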

How the data were processed

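The authors used Trim Galore for trimming, STAR 2.7.2b for alignment to mm10 (iGenomes) and HTSeq for counting. The deposited values are raw counts, whole and not normalized, for 12 hearts (3 mice per group). Each comparison was fitted over its own 6 libraries in R 4.3.3 with edgeR 4.0.16: genes passing filterByExpr, TMM, quasi-likelihood test with robust dispersion, Benjamini-Hochberg adjustment over all genes tested. CPM were scaled by TMM over 12 hearts, with a prior count of 2 for log2. Standard errors are the log2 fold change over the root of the F statistic. The script was tested on simulated data.

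The members and lists were chosen with earlier results of these data known. All 5 genes, the nearest neighbours, the 3 most alike genes, and list genes called at P1 (at most 4 a list) were to be named. The form CACGTG, the genes under the fold threshold and neighbours other than the nearest were added after seeing values. TMM was first run after the filter. With those counts seen to differ from an earlier analysis of the same files, the order of filter and TMM, the library sizes and the dispersion setting were also varied, and the first fit was kept. Alternatives were DESeq2 1.42.0, RLE factors, other filters, all 12 libraries, a Y-linked covariate and each library left out. Of the table's symbols, 94.5% matched a GENCODE M21 position by name, the 5 genes included, and all 5 had a RefSeq promoter. A single item is not reported here.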

Additional observations from a re-analysis of the deposited data

Results flagged for a closer look

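Among the genes named, 2 ArfGAP genes differed between the models in the test of genotype by model over 12 libraries, in which P1 and adult also differ in age. Agfg1 had a log2 fold change that was 0.48 higher at P1 (edgeR adjusted p = 0.0322), from 0.47 in cKO and -0.0024 in KI/KI hearts. For Smap2 the difference was 0.54 (edgeR adjusted p = 0.0432), from 0.43 in cKO and -0.11 in KI/KI hearts. Both genes were named for their adjusted p at P1, so part of the tested difference was used in choosing them. The share of all 15729 genes that passed this test was not counted.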

How the results depend on the processing

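All 5 genes kept their adult direction in 11 alternatives each, and their values with 1 heart left out ran from 3.02 to 3.52 for AA465934, 2.64 to 3.42 for Aqp8, 1.899 to 2.63 for Nlrc3, 0.86 to 1.18 for Tspan17 and 0.87 to 1.28 for Adap1 (log2 fold change). At P1 the direction of each was kept in 17 alternatives, and AA465934, Aqp8, Tspan17 and Adap1 were called in 0 of them. With 1 heart left out, P1 values came close to 0 for AA465934 (-0.68 to -0.09) and Aqp8 (0.04 to 0.58). They ran from 0.40 to 0.58 for Tspan17 and from 0.29 to 0.81 for Adap1. Nlrc3 stayed called in 13. It was not called in 4, each with a single heart left out, and its values with 1 heart left out ran from 1.05 to 1.51. Counts of all genes called with 1 library left out ran from 45 to 585 higher and from 38 to 348 lower in cKO hearts, against 425 and 261, with the fewest without floxed heart 1, 142 and 124 without floxed heart 2, and 136 and 95 without cKO heart 5. With no fold threshold they were 1401 and 1119. Family and partner genes called ran from 0 to 2, the 2 without cKO heart 6, and were 10 with no fold threshold. With TMM before the filter, tried after the first counts were seen, 431 genes were higher and 257 lower. Keeping the original library sizes or a non-robust dispersion estimate, also tried then, left 425 and 261. These settings returned the P1 values of the first fit for all 5 genes. They are counted among the 17 alternatives but add no separate check. No call of the 5 genes changed with TMM before the filter. No paired analysis was possible because the groups compared share no replicate numbers. With 3 hearts a group, depth limits AA465934 and Aqp8 most, at 18 to 50 counts in floxed hearts.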
